A study of Rattus norvegicus with 12 samples.

Results

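The hippocampal response to KA was compared between isolated and enriched rats, as the difference between the KA effects of the 2 housings. All 12 samples of the series entered, 12 of 12, in 4 groups of 3 taken from the sample titles and treatment text. The labels do not spell out KA, which is taken here as kainic acid, since the series is about seizures. PBS, phosphate-buffered saline, was the vehicle. Rats were treated at postnatal day 20. Isolated-PBS and isolated-KA rats were then caged individually for 10 days, whereas enriched-PBS and enriched-KA rats were kept with 8 rats in a large cage, for a time the labels do not give. Tissue of 3 to 4 animals, of unstated sex, strain, litter and cage, was pooled for every sample, so n counts pools and p-values measure the spread between pools. Enriched housing and sharing a cage cannot be told apart, nor, with no ordinary group housing in the design, can enrichment and isolation.

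Kainic acid opens the AMPA and kainate classes of glutamate receptor and drives hippocampal pyramidal cells into seizures. In the adult rodent such seizures are followed by microglial and astrocytic activation, induction of immediate early genes and, in vulnerable fields, loss of neurons, while the immature rat hippocampus is known to be more resistant to cell loss. Enriched housing, which combines company, space and objects, is known to raise activity-regulated transcripts and neurogenesis in the rodent hippocampus.

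The 12 Affymetrix arrays had median signals from 70.1 to 74.1, and pairwise correlations of log2 values ran from 0.971 to 0.990. Enriched-KA replicate 3 stood apart: it had the lowest mean correlation with the other arrays (0.977), lay at 19.1 on the first principal component against -7.07 to 0.84 for the others, and had the highest log2 ratio of the 3′ to the 5′ beta-actin probe set, 0.86 against 0.36 to 0.64. Markers of hippocampal pyramidal and granule cells were measured as labelled, with 15 of 17 on the array passing the brightness filter. Ttr, the thyroid hormone carrier of choroid plexus, had a signal of 2719 in isolated-PBS replicate 1 and 87.2 to 683 in the other 11 samples. In such whole-tissue RNA, fewer cells of a type and less RNA per cell cannot be told apart.

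The interaction was the KA effect (KA minus PBS) of enriched rats less the KA effect of isolated rats, on a log2(signal + 17) scale on which the changes of dim genes are understated. A positive value thus means that KA samples stood higher against their PBS samples in enriched than in isolated housing. At an adjusted p of 0.05 the interaction was called by limma in 0 of 9520 probe sets (0%), and 473 (4.97%) had an unadjusted p under 0.05, with 274 positive (2.88%) and 199 negative (2.09%). As a proportion, 4.97% is close to the threshold of 0.05, the share expected where no probe set has an interaction. Without enriched-KA replicate 3 the count at an unadjusted p under 0.05 was 718. Within housings, limma called 1 probe set for KA in isolated rats (0.0105%), that of Anp32a, and 0 in enriched rats (0%), with 410 (4.31%) and 474 (4.98%) at an unadjusted p under 0.05. The genes below are therefore given as values that did not pass, with the exception of the fall of Anp32a in isolated rats.

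Across the 9520 probe sets the KA effects of the 2 housings, which share no samples, had a Pearson correlation of -0.0421, and 48.4% had the same sign. Of these probe sets, 102 (1.07%) had an unadjusted interaction p under 0.01, a share close to that threshold, so the split that follows is a description. In 46 of the 102 the KA effect had an unadjusted p under 0.05 in isolated rats alone, with 24 of them positive and 22 negative, and in 38 it did so in enriched rats alone, with 23 positive and 15 negative. A further 17 had such a p in both housings with opposite signs, 15 of them lower after KA in isolated and higher after KA in enriched rats. The remaining probe set, that of Anp32a, was lower after KA in both. In these 102, the group mean farthest from the other 3 was isolated-KA in 31, isolated-PBS in 25, enriched-KA in 25 and enriched-PBS in 21. Over all probe sets tested the same shares were 25.7%, 21.9%, 28.9% and 23.5%, against 30.4%, 24.5%, 24.5% and 20.6% here. No group thus supplied most of the small p-values.

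**Figure D1:**
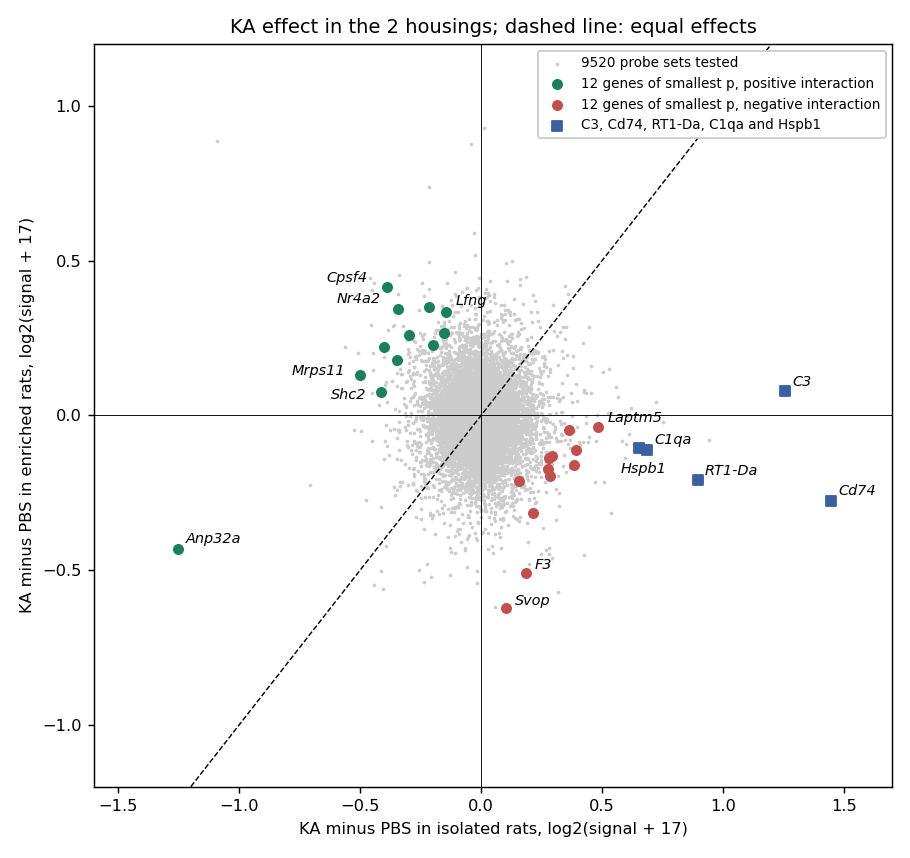
KA minus PBS in isolated rats (horizontal axis) against KA minus PBS in enriched rats (vertical axis), each a difference of group means of log2(signal + 17) with n = 3 per group. Grey points are the 9520 probe sets tested, green and red points are the 12 genes of smallest interaction p in each direction, and blue squares are 5 immune and stress genes. Cd74, C3, RT1-Da, C1qa and Hspb1 lie far to the right with vertical values from -0.28 to 0.08, whereas Cpsf4 and Nr4a2 lie at the upper left.

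A gene was said to cross when all KA samples lay on 1 side of all PBS samples in isolated rats and on the opposite side in enriched rats. In 36 probe sets (0.378%) KA lay below PBS in isolated and above PBS in enriched rats, and in 11 (0.116%) the order was reversed. For comparison, KA lay above PBS in both housings in 12 (0.126%) and below PBS in both in 23 (0.242%). Complete separation within a single housing was commoner: KA lay above PBS in 494 (5.19%) and below PBS in 535 (5.62%) in isolated rats, and above in 476 (5%) and below in 440 (4.62%) in enriched rats. With 3 samples against 3, complete separation has an exact two-sided permutation p of 0.1, the smallest possible.

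Of the genes that were lower after KA in isolation and higher after KA in enrichment, Cpsf4, Sstr4, Nr4a2, Lfng, Clp1 and Tpd52l1 had the smallest p. Cpsf4, a zinc finger subunit of the cleavage and polyadenylation specificity factor, had signals of 111, 114 and 91.6 in isolated-PBS, 82.3, 81.4 and 66.5 in isolated-KA, 86.6, 70.1 and 86.4 in enriched-PBS, and 105, 104 and 132 in enriched-KA. Neither housing showed overlap, and the KA samples of isolated rats resembled the PBS samples of enriched rats. The interaction of Cpsf4 was 0.80 (SE 0.16), made up of -0.39 in isolated and 0.41 in enriched rats. Clp1, an RNA kinase of the 3′ end cleavage machinery and of tRNA splicing, had signals of 66.9, 79.2 and 70.04 in isolated-PBS, 66.6, 53.4 and 59.5 in isolated-KA, 49.2, 60.8 and 57.6 in enriched-PBS, and 75.7, 84.4 and 67.6 in enriched-KA. Its separation was narrow in isolated rats, where the highest KA sample lay just below the lowest PBS sample, and wider in enriched rats, and the interaction was 0.57 (SE 0.14). The list of mRNA processing genes, which did not hold Clp1, was divided: of 38 tested, 17 had positive and 21 negative interactions, with a median of -0.01. Cpsf4 and Hnrnpab, an RNA-binding protein with -0.38 (SE 0.12) in the opposite direction, were the members with an unadjusted p under 0.05, 1 in each direction, against 2.7% positive and 2.12% negative over all 6923 genes (1 probe set each).

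The somatostatin receptor gene Sstr4, whose product is an inhibitory receptor of hippocampal neurons, had signals of 65.6, 65.5 and 80.6 in isolated-PBS, 56.2, 53.3 and 52.5 in isolated-KA, 53.2, 51.0 and 58.9 in enriched-PBS, and 63.7, 74.3 and 67.4 in enriched-KA. The isolated PBS and enriched KA samples formed the high level and the other 6 samples the low level, with an interaction of 0.56 (SE 0.12). Nr4a2, which encodes the orphan nuclear receptor Nurr1 and is induced by neuronal activity, had signals of 52.6, 68.5 and 51.9 in isolated-PBS, 47.1, 33.6 and 44.9 in isolated-KA, 48.4, 51.6 and 49.4 in enriched-PBS, and 62.0, 74.8 and 67.1 in enriched-KA. By group means isolated-KA was lowest and enriched-KA highest, without overlap within either housing, and the interaction was 0.69 (SE 0.15). A brighter probe set of Nr4a2 gave only 0.08 (SE 0.14), with KA effects of -0.09 in isolated and -0.01 in enriched rats. Its KA and PBS samples overlapped in both housings, so it did not show the crossing.

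Lfng encodes lunatic fringe, the glycosyltransferase that tunes which ligands Notch receptors answer to. It had signals of 57.5, 50.6 and 60.1 in isolated-PBS, 48.5, 48.5 and 49.98 in isolated-KA, 48.2, 45.9 and 47.6 in enriched-PBS, and 66.8, 56.0 and 69.9 in enriched-KA. The 3 enriched-KA samples include the highest of all and the 3 enriched-PBS samples are the lowest of all, and the interaction was 0.48 (SE 0.11). Tpd52l1, a member of the tumour protein D52 family, had signals of 173, 187 and 189 in isolated-PBS, 151, 165 and 155 in isolated-KA, 141, 148 and 151 in enriched-PBS, and 161, 185 and 178 in enriched-KA. Isolated-PBS and enriched-KA were again the high groups, with an interaction of 0.43 (SE 0.11). The adjusted p of the interaction lay between 0.758 and 0.808 for these 6 genes.

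In the opposite order, higher after KA in isolation and lower after KA in enrichment, the named genes of smallest p were F3, Reep6, Leprot, Efr3a, Cd24 and Ifngr2. F3 encodes tissue factor, the starter of blood coagulation, which astrocytes make in the brain. Its signals were 64.8, 70.03 and 71.5 in isolated-PBS, 83.3, 85.2 and 73.3 in isolated-KA, 84.8, 85.5 and 92.7 in enriched-PBS, and 44.6, 71.8 and 55.6 in enriched-KA. The enriched rats carried most of the difference, with KA effects of 0.19 in isolated and -0.51 in enriched rats and an interaction of -0.69 (SE 0.16). Reep6, of a family of proteins that shape the endoplasmic reticulum, had signals of 44.2, 45.9 and 43.2 in isolated-PBS, 62.5, 56.9 and 55.6 in isolated-KA, 54.9, 55.1 and 58.3 in enriched-PBS, and 46.6, 51.0 and 51.5 in enriched-KA. Here the isolated rats carried more of it, since the 3 isolated-PBS samples were the lowest of all 12, and the interaction was -0.43 (SE 0.10). Leprot, an endosomal membrane protein, had signals of 136, 147 and 143 in isolated-PBS, 184, 167 and 179 in isolated-KA, 157, 171 and 159 in enriched-PBS, and 157, 126 and 138 in enriched-KA. One enriched-KA sample lay level with the lowest enriched-PBS sample to 3 digits, so the separation there was marginal. Its interaction was -0.48 (SE 0.12), against -0.13 for a dimmer probe set that overlapped in both housings.

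Efr3a, which anchors a phosphatidylinositol kinase at the plasma membrane, had signals of 230.2, 216 and 201 in isolated-PBS, 263, 271 and 262 in isolated-KA, 220.5, 254 and 229 in enriched-PBS, and 207, 207 and 219.7 in enriched-KA and an interaction of -0.42 (SE 0.11). Its other probe set had the opposite sign, 0.22, so no direction can be given for the gene. Cd24, a surface glycoprotein of immature neurons and leukocytes, had signals of 416, 401 and 383 in isolated-PBS, 455, 461 and 427 in isolated-KA, 409, 457 and 419 in enriched-PBS, and 359, 400.03 and 343 in enriched-KA. The separation was complete but narrow in both housings, with an interaction of -0.37 (SE 0.11). Ifngr2, the signalling chain of the interferon gamma receptor, had signals of 63.1, 70.8 and 68.7 in isolated-PBS, 75.1, 78.4 and 75.7 in isolated-KA, 85.9, 69.5 and 70.3 in enriched-PBS, and 69.4, 54.0 and 54.7 in enriched-KA. Enriched KA samples were just below the lowest enriched PBS sample in 1 of 3 and clearly below in 2 of 3. The interaction of Ifngr2 was -0.42 (SE 0.13), with -0.09 for its brighter probe set. That probe set overlapped in both housings and had a KA effect of 0.03 in enriched rats. The adjusted p lay between 0.758 and 0.91 for these 6 genes.

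**Figure D2:**
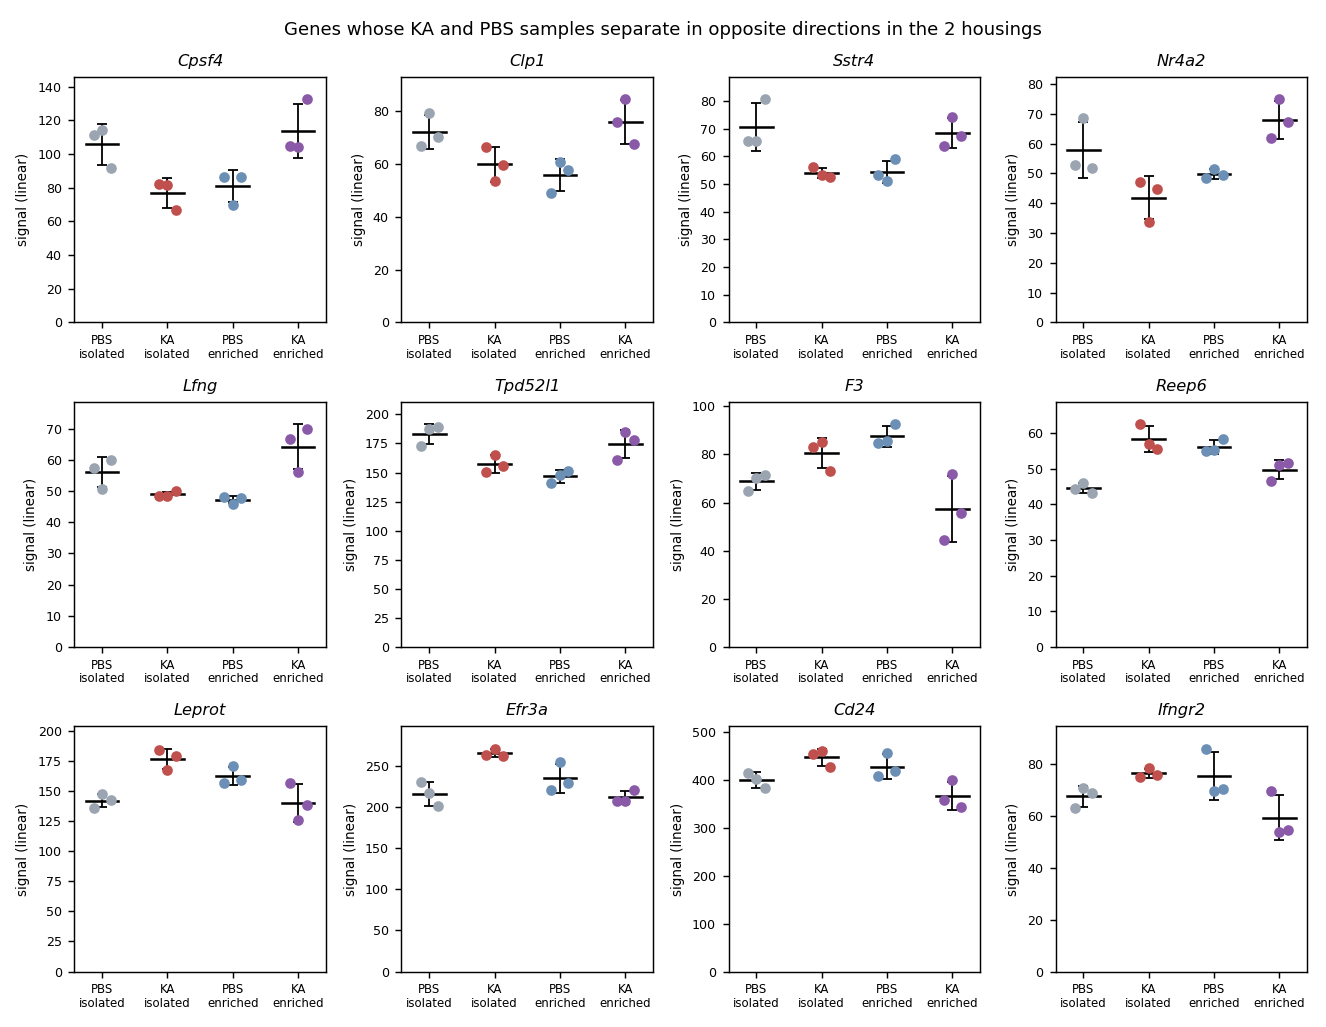
Signal on a linear scale in each of the 12 samples for 12 crossing genes, grouped as PBS and KA in isolated and in enriched rats, with 1 point per pool, horizontal bars for means and error bars for SD (n = 3). In Cpsf4, Clp1, Sstr4, Nr4a2, Lfng and Tpd52l1 the outer groups are high and the inner groups low, and in F3, Reep6, Leprot, Efr3a, Cd24 and Ifngr2 the pattern is turned over.

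Several other genes of smallest p differed after KA mainly in isolated rats. Hrh3, the histamine receptor that restrains transmitter release at nerve endings, had signals of 199.9, 194 and 195 in isolated-PBS, 156, 146 and 149.99 in isolated-KA, 153, 143 and 171 in enriched-PBS, and 178, 169 and 188 in enriched-KA. The isolated groups lay clearly apart, and the enriched groups overlapped. The interaction was 0.53 (SE 0.11), against 0.14 for another probe set of Hrh3. That probe set had a KA effect of 0.003 in isolated rats and overlapped in both housings, so it did not show the fall. Shc2, an adaptor of neuronal growth factor receptors, had signals of 75.3, 78.7 and 83.0 in isolated-PBS, 50.6, 60.5 and 54.4 in isolated-KA, 69.3, 65.6 and 64.8 in enriched-PBS, and 65.2, 77.0 and 71.6 in enriched-KA. Isolated-KA held the 3 lowest samples and the enriched groups overlapped, giving 0.49 (SE 0.11). Depp1, a FOXO target linked to autophagy, and Mrps11, a protein of the mitochondrial ribosome, were of the same kind. Depp1 had group mean signals of 85.8 ± 9.57 and 60.9 ± 8.29 after PBS and KA in isolated rats and 74.6 ± 5.30 and 90.2 ± 12.6 after PBS and KA in enriched rats (SD, n = 3), with an interaction of 0.62 (SE 0.15). Mrps11 had 146 ± 6.98 and 98.2 ± 8.69 after PBS and KA in isolated rats and 121 ± 19.7 and 134 ± 19.7 after PBS and KA in enriched rats, with an interaction of 0.63 (SE 0.16).

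Anp32a, an acidic nuclear protein that binds histones and inhibits a phosphatase, differed from the genes above in that KA samples were lower in both housings. Its signals were 385, 331 and 459 in isolated-PBS, 167, 162 and 132 in isolated-KA, 127, 132 and 159 in enriched-PBS, and 116, 83.7 and 98.4 in enriched-KA. Anp32a fell in isolated rats (log2 -1.25, SE 0.13, limma adjusted p = 0.00361), with no overlap. In enriched rats the log2 difference was -0.43 (SE 0.13, adjusted p = 0.932), from a PBS level that already lay near that of isolated-KA. The interaction of 0.82 (SE 0.19) had an adjusted p of 0.765, so the call in 1 housing was not shown to differ from the other.

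Synj1 and Svop, both of synaptic vesicles, stood on opposite sides. Synj1, the phosphoinositide phosphatase that strips clathrin from recycled vesicles, had signals of 769, 745 and 728 in isolated-PBS, 689.8, 703 and 621 in isolated-KA, 733, 703 and 661 in enriched-PBS, and 802, 869 and 857 in enriched-KA, without overlap within either housing and with an interaction of 0.42 (SE 0.11). Svop, a transporter-like vesicle protein, had signals of 400.4, 403 and 452 in isolated-PBS, 498, 356 and 516 in isolated-KA, 492, 514 and 525 in enriched-PBS, and 373, 332 and 277 in enriched-KA. The 3 enriched-PBS samples of Svop were high and tight and 2 of 3 enriched-KA samples were below every other sample, whereas the isolated groups overlapped, giving -0.73 (SE 0.19). The 30 tested genes of synaptic vesicles and release had 18 positive and 12 negative interactions with a median of 0.02. Synj1 was not on that list, so its positive value is not in these counts. Svop was the list member with an unadjusted p under 0.05 (3.33% of the list, against 2.12% negative over all genes).

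The remaining negative genes were mostly higher after KA in isolation. Gipc1, a PDZ adaptor of endocytic traffic, had group mean signals of 53.5 ± 2.69 and 75.5 ± 8.33 after PBS and KA in isolated rats and 71.3 ± 3.17 and 64.9 ± 7.96 after PBS and KA in enriched rats (SD, n = 3). Maf, a basic leucine zipper transcription factor, had 62.0 ± 3.22 and 84.8 ± 5.93 after PBS and KA in isolated rats and 75.8 ± 3.47 and 72.9 ± 6.24 after PBS and KA in enriched rats. In both, isolated-KA lay above isolated-PBS without overlap while the enriched groups overlapped. Slc15a2, a peptide transporter of astrocytes and choroid plexus, had mean signals of 163, 201, 189 and 166 in isolated-PBS, isolated-KA, enriched-PBS and enriched-KA. In the same order Ptn, the growth factor pleiotrophin, had 555, 731, 676 and 599, and Txnip, an inhibitor of thioredoxin, had 153, 181, 197 and 154. In the order given, the interactions of these 5 genes were -0.50 (SE 0.13), -0.41 (SE 0.11), -0.45 (SE 0.13), -0.55 (SE 0.16) and -0.53 (SE 0.16).

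Of 22 microglial and macrophage genes on the array 17 were tested, and the KA effect was above 0 for 16 of the 17 in isolated and for 8 of the 17 in enriched rats. The count in enriched rats rested on single pools, being 14 without enriched-PBS replicate 2 and 5 without enriched-KA replicate 3. The median KA effect was 0.37 in isolated and -0.0005 in enriched rats, and the latter was 0.09 and -0.07 without those pools. Of the 17 interactions 15 were negative and 2 positive, with a median of -0.34, against 3480 negative and 3443 positive with a median of -0.0008 over all 6923 genes (1 probe set each). An unadjusted p under 0.05 was reached by 7 members, all negative, or 41.2% of the list, against 2.12% negative and 2.7% positive over all genes. They were Laptm5, C1qb, C1qa, Tyrobp, P2ry12, Fcer1g and Lyz2, and 0 of them passed limma's adjusted test. Their genes encode a lysosomal membrane protein, subunits of the complement starter C1q, the adaptors of activating receptors, a purine receptor of resting microglia and lysozyme. Lists and their members were chosen with earlier results of these data known, so the 41.2% and the shares of later lists are descriptions.

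Within the enriched groups, single pools stood high. C1qa had signals of 159, 171 and 179 in isolated-PBS, 317, 319 and 224 in isolated-KA, 176, 288 and 157 in enriched-PBS, and 180.3, 139.5 and 248 in enriched-KA. All 3 isolated-KA samples were above all isolated-PBS samples, while enriched-PBS replicate 2 and enriched-KA replicate 3 stood in the isolated-KA range and the other 4 enriched samples did not. C1qb repeated the order with signals of 97.4, 80.8 and 117 in isolated-PBS, 164, 198 and 138 in isolated-KA, 126, 160.4 and 111 in enriched-PBS, and 111, 89.3 and 169 in enriched-KA. Laptm5 had signals of 106, 91.7 and 104 in isolated-PBS, 131, 148 and 165 in isolated-KA, 103, 122 and 112 in enriched-PBS, and 104, 97.4 and 127 in enriched-KA, and there the enriched samples all lay below the lowest isolated-KA sample. The mean centred log2 level of the 17 genes was -0.156, -0.192 and -0.0944 in isolated-PBS, 0.160, 0.267 and 0.155 in isolated-KA, -0.112, 0.180 and -0.134 in enriched-PBS, and -0.0438, -0.202 and 0.172 in enriched-KA. The high samples were thus all 3 of isolated-KA and 1 of each enriched group. Without enriched-PBS replicate 2, 14 of 17 interactions were negative, 3 with an unadjusted p under 0.05, and the median was -0.24. Without enriched-KA replicate 3 the numbers were 16, 9 and -0.39.

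Of the complement and MHC genes, only 4 of the 24 listed were tested, since 16 were on the array and 12 of these were below the filter on mean signal, which dim genes can pass through the samples where they are high. C3, RT1-Da and Cd74 were such dim genes, with isolated-PBS means of 28.7, 33.9 and 39.1, so the count and median over the 4 are given as a description. All 4 interactions were negative, with a median of -1.14, and 3 (75%) had an unadjusted p under 0.05. Over all genes 2.12% were negative with such a p. These shares cannot be compared, because the filter could admit dim members through the samples where they were high. When only the brightest 40% of probe sets were kept, B2m remained of the 4, at -0.30. Cd74, the invariant chain that escorts MHC class II, had signals of 28.4, 39.6 and 49.2 in isolated-PBS, 125, 187 and 102 in isolated-KA, 42.2, 152 and 59.7 in enriched-PBS, and 43.9, 33.6 and 124 in enriched-KA. RT1-Da, a class II alpha chain of the rat with close relatives in its family, had signals of 32.3, 27.4 and 41.9 in isolated-PBS, 66.8, 96.4 and 70.2 in isolated-KA, 32.9, 91.9 and 44.8 in enriched-PBS, and 30.4, 28.2 and 84.2 in enriched-KA. C3, the component on which all complement pathways converge, had signals of 28.7, 27.8 and 29.5 in isolated-PBS, 100.1, 110.2 and 69.95 in isolated-KA, 24.2, 99.1 and 22.5 in enriched-PBS, and 24.6, 26.4 and 106 in enriched-KA. In all 3 genes the 3 isolated-KA samples, enriched-PBS replicate 2 and enriched-KA replicate 3 were the 5 highest of the 12, so the isolated groups separated and the enriched groups overlapped. The interactions were -1.72 (SE 0.55) for Cd74, -1.10 (SE 0.43) for RT1-Da and -1.18 (SE 0.58) for C3, and B2m, the light chain of MHC class I, had -0.30 (SE 0.13), with -0.23 for its other probe set.

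The high level of C3 in 1 enriched-PBS pool went together with that of the microglial genes in the same pool, in rats that had received no KA. The list was also counted without each of the high pools. Without enriched-PBS replicate 2 the 4 interactions remained negative in sign, with a median of -0.72 and 1 of 4 at an unadjusted p under 0.05, and without enriched-KA replicate 3 the median was -1.58 with 3 of 4. The median KA effect of the 4 genes in enriched rats was -0.10, but 0.14 without enriched-PBS replicate 2 and -0.51 without enriched-KA replicate 3. Enriched-KA replicate 3 is also the array that stood apart in correlation and in the beta-actin ratio. The part of those array properties in the immune values was not tested.

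The promoters of the 4 immune genes with the most negative interactions are shown because these genes were high in the same pools. Each is the 250 bases before the annotated start, 5′ to 3′ on the strand of the gene, from RefSeq on build GRCr8. Capitals mark the Y box (ATTGG or its complement CCAAT), a motif of class II MHC promoters, and the core of the PU.1 motif (GAGGAA or its complement TTCCTC), named after a transcription factor of myeloid cells.
Cd74: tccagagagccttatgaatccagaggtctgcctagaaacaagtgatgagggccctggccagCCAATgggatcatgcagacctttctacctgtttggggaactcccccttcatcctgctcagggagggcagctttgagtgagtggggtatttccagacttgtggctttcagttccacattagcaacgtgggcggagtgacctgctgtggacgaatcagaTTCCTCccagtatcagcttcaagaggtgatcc
RT1-Da: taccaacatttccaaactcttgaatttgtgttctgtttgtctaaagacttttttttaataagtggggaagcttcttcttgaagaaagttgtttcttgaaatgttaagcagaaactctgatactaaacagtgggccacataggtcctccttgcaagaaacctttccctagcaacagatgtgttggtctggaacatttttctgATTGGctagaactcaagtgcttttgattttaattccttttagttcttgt
C3: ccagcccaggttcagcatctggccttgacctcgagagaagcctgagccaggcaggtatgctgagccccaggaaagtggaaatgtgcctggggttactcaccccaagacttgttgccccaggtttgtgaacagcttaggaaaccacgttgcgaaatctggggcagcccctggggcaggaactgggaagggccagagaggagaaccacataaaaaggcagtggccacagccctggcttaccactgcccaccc
C1qa: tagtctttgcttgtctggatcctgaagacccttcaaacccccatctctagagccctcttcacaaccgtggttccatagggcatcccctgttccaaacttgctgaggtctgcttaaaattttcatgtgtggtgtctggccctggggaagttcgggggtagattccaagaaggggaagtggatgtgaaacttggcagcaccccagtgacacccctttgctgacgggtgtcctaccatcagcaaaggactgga
Cd74 lies at chr18:56526956-56527205 (plus strand), RT1-Da at chr20:4515165-4515414 (plus strand), C3 at chr9:2201340-2201589 (minus strand) and C1qa at chr5:154419934-154420183 (minus strand). The Cd74 window held 1 Y box 189 bases and 1 PU.1 core 32 bases before the start, and the RT1-Da window 1 Y box 49 bases before it, while the C3 and C1qa windows held neither run of letters. Of 33469 promoter windows of the same length in the table, 34% held a Y box and 23.3% a PU.1 core on either strand, so these matches are a description of the sequences.

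**Figure D3:**
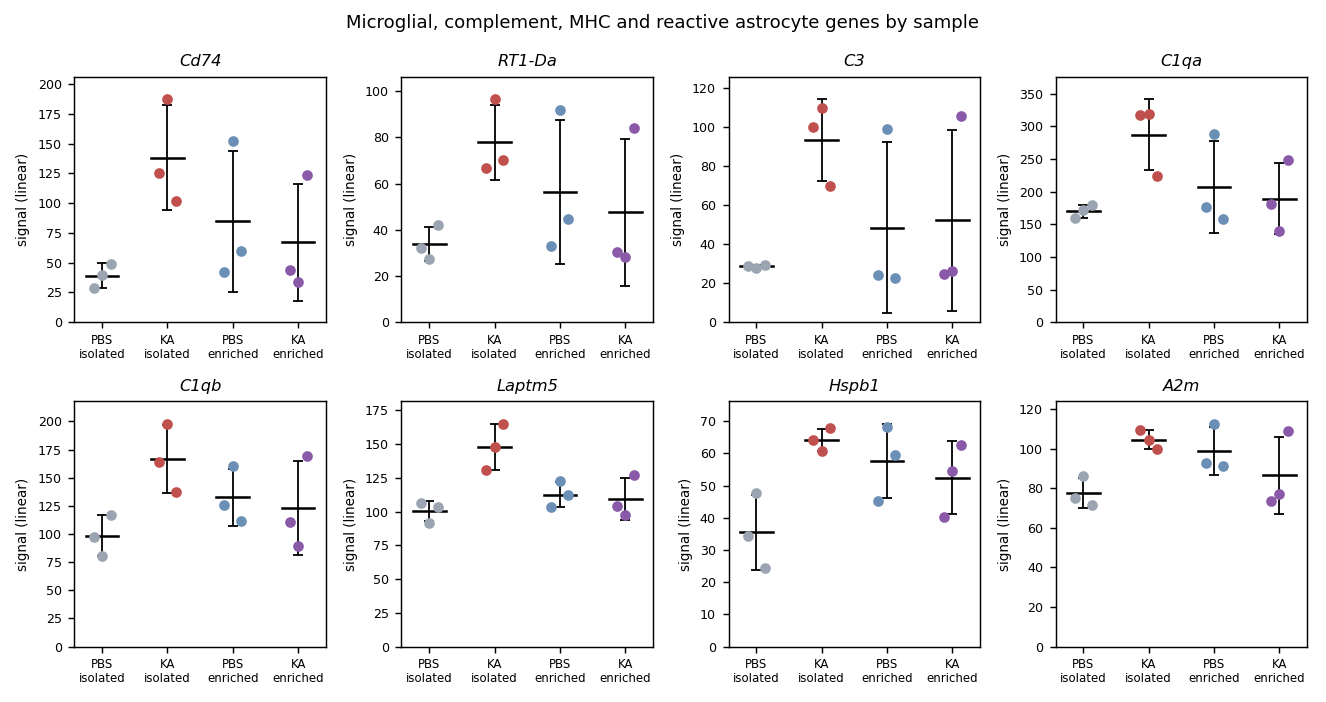
Signal on a linear scale in each of the 12 samples for 8 genes of microglia, complement, MHC and reactive astrocytes, with 1 point per pool, bars for means and error bars for SD (n = 3). Isolated-KA lies above isolated-PBS in every panel, and in Cd74, RT1-Da, C3 and C1qa the enriched groups each hold 1 high pool.

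Reactive astrocyte genes pointed the same way with smaller differences. All 9 tested members of 17 on the array had negative interactions, with a median of -0.25 and median KA effects of 0.25 in isolated and 0.03 in enriched rats. The enriched value was 0.07 without enriched-PBS replicate 2 and -0.04 without enriched-KA replicate 3. Hspb1, a small heat shock protein of reactive astrocytes, had signals of 34.3, 47.7 and 24.5 in isolated-PBS, 64.1, 60.7 and 67.8 in isolated-KA, 45.3, 68.1 and 59.6 in enriched-PBS, and 40.3, 54.7 and 62.6 in enriched-KA. A2m, a protease inhibitor of the acute phase, had 74.9, 86.1 and 71.6 in isolated-PBS, 109.7, 104 and 99.9 in isolated-KA, 92.8, 113 and 91.1 in enriched-PBS, and 73.9, 77.1 and 109 in enriched-KA. Both separated completely in isolated rats, overlapped in enriched rats and had an unadjusted p under 0.05 (22.2% of the list, against 2.12% negative over all genes). Their interactions were -0.76 (SE 0.23) and -0.54 (SE 0.17). Hspb1 was dim in isolated-PBS, with a mean of 35.5, and dim genes can pass the filter through samples where they are high. The share of the list is therefore given as a description. Gfap, the intermediate filament of astrocytes, had 1913 ± 200.04 and 2393 ± 300.2 after PBS and KA in isolated rats and 1894 ± 243 and 1991 ± 307 after PBS and KA in enriched rats (SD, n = 3), with an interaction of -0.25 (SE 0.19). The centred level of the 9 genes was -0.161, -0.0761 and -0.192 in isolated-PBS, 0.0919, 0.178 and 0.203 in isolated-KA, -0.132, 0.151 and -0.0490 in enriched-PBS, and -0.115, -0.00871 and 0.110 in enriched-KA, so the same enriched pools were the highest of their groups. Homeostatic astrocyte genes had 9 positive and 5 negative interactions of 14, with a median of 0.03 and 0 at an unadjusted p under 0.05.

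Probe sets of the same gene disagreed for Aif1 in sign and for Gja1 in size. Aif1, the calcium-binding protein Iba1 of microglia, had 0.27 (SE 0.20) on its brightest probe set and -0.73 on another, and Gja1, the astrocyte gap junction protein connexin 43, had -0.18 (SE 0.10) and -0.70.

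Of 21 immediate early genes tested, 16 interactions were positive and 5 negative (23.8%, against 50.3% negative over all genes), with a median of 0.12. Arc, a synaptic capsid-like protein made on activity, had signals of 279.8, 241 and 226 in isolated-PBS, 185, 188 and 201 in isolated-KA, 285, 351 and 319 in enriched-PBS, and 285, 440.3 and 343 in enriched-KA. Isolated-KA lay below isolated-PBS without overlap, the enriched samples were all above the isolated ones, and the 2 enriched groups overlapped, giving 0.49 (SE 0.19). Rgs2, a brake on G protein signalling, had 0.29 (SE 0.11) and 0.28 on its other probe set. Arc and Rgs2 were the 2 members with an unadjusted p under 0.05, or 9.52% of the list, against 2.7% positive over all genes. Egr1, a zinc finger factor of the same class, had mean signals of 448, 398, 584 and 588 in isolated-PBS, isolated-KA, enriched-PBS and enriched-KA, with an interaction of 0.18 (SE 0.13). Per1, an immediate early and clock gene, had 70.9, 70.1 and 30.4 in isolated-PBS, 81.7, 65.0 and 66.0 in isolated-KA, 26.5, 57.5 and 19.2 in enriched-PBS, and 85.9, 65.4 and 74.0 in enriched-KA, with a wide spread in both PBS groups and an interaction of 0.61 (SE 0.36). Fos was below the filter and was not tested, and its mean signals were 35.4, 31.4, 60.7 and 70.3 in the same order. Bdnf, the activity-regulated growth factor, had -0.20 (SE 0.12).

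Among receptors of amines and acetylcholine, 9 of 14 interactions were positive and 5 negative, with a median of 0.06 that was -0.00405 without enriched-PBS replicate 2. Hrh3 and the serotonin receptor genes Htr5b and Htr1b had an unadjusted p under 0.05, all positive (21.4% of the list, against 2.7% over all genes). Htr5b had signals of 158, 164 and 161 in isolated-PBS, 117, 116 and 108 in isolated-KA, 166, 138 and 148 in enriched-PBS, and 156, 151 and 118 in enriched-KA, and isolated-KA held its lowest 3 samples. The interaction was 0.37 (SE 0.14) for Htr5b and 0.23 (SE 0.10) for Htr1b. Among neuropeptide receptors 8 of 12 were positive, with a median of 0.12, but the median was -0.14 when only the brightest 40% of probe sets were kept. Sstr4 and Sstr2, both of somatostatin, had an unadjusted p under 0.05 (16.7% of the list, against 2.7% positive over all genes). Both receptor lists were chosen with earlier results of these data known, so these shares are descriptions. Sstr2 had 0.52 (SE 0.22), against 0.19 for its other probe set. The peptide genes themselves were divided, with 8 positive and 11 negative of 19. Gal, the inhibitory peptide galanin, had 0.32 (SE 0.13), the granin gene Chga had -0.33 (SE 0.15), and Npy, the peptide long studied in seizures, had -0.02 (SE 0.12) with mean signals of 423, 414, 476 and 459.

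Notch pathway genes were represented by 15 tested members, of which 9 were positive and 6 negative, with a median of 0.07 that was -0.13 for the brightest 40%. The 4 with an unadjusted p under 0.05 (26.7% of the list, against 2.7% over all genes) were all positive: Lfng, described above, Dtx1, a ubiquitin ligase that modulates Notch, Psen2, a catalytic subunit of the gamma secretase that cuts Notch, and Jag2, a ligand. This list too was chosen with earlier results of these data known, so its share is a description. Dtx1 had signals of 163, 159 and 156 in isolated-PBS, 137, 143 and 139 in isolated-KA, 151, 147 and 129.6 in enriched-PBS, and 158, 148 and 156 in enriched-KA. Isolated-KA lay below isolated-PBS without overlap, and the enriched groups overlapped. The interactions were 0.28 (SE 0.10) for Dtx1, 0.45 (SE 0.18) for Psen2 and 0.38 (SE 0.16) for Jag2. The receptors Notch1 and Notch3 had -0.13 (SE 0.16) and 0.13 (SE 0.11), and the targets Hes1 and Hes5 had 0.07 (SE 0.13) and 0.42 (SE 0.23).

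Of 18 sodium, calcium and HCN channel genes 15 were positive and 3 negative, with a median of 0.07 that ran from 0.03 without enriched-PBS replicate 2 to 0.14 without enriched-KA replicate 2. Scn3b, an auxiliary subunit of sodium channels, had signals of 940.1, 827 and 997 in isolated-PBS, 806, 742 and 753 in isolated-KA, 971, 704 and 797 in enriched-PBS, and 909, 992 and 1244 in enriched-KA. It was the member with an unadjusted p under 0.05 (5.56% of the list, against 2.7% positive over all genes), at 0.60 (SE 0.18), and its isolated groups separated while the enriched groups overlapped. Potassium channel genes had 17 positive and 11 negative of 28 with 0 at an unadjusted p under 0.05. In the postsynaptic density list 16 of 25 were positive. The scaffolds Shank1 and Shank3 had an unadjusted p under 0.05 (8% of the list, against 2.7% positive over all genes), with interactions of 0.52 (SE 0.20) and 0.39 (SE 0.17). Shank3 had signals of 572, 588 and 644 in isolated-PBS, 695, 660.1 and 493 in isolated-KA, 575, 515 and 507 in enriched-PBS, and 645, 723 and 768 in enriched-KA, so its separation was within the enriched rats. The glutamate receptors that kainic acid acts on, with their NMDA relatives, had 3 positive and 7 negative of 10. Gria1, an AMPA receptor subunit, had signals of 349, 262 and 531 in isolated-PBS, 357, 520.1 and 481 in isolated-KA, 456, 549.8 and 484 in enriched-PBS, and 390.3, 424 and 278 in enriched-KA and an interaction of -0.73 (SE 0.31). Its isolated groups overlapped, with isolated-PBS replicate 3 the second highest of all samples, and in enriched rats every KA sample lay below every PBS sample. Metabotropic glutamate and GABA receptor genes had 0 members at an unadjusted p under 0.05, of 5 and 8.

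Circadian clock genes had 11 positive and 4 negative interactions of 15, with a median of 0.08 that was 0.0049 without enriched-KA replicate 1 and 0.14 with array weights. Nr1d1, the clock repressor Rev-erb alpha, had signals of 84.6, 93.1 and 86.3 in isolated-PBS, 80.3, 71.0 and 74.8 in isolated-KA, 81.6, 84.4 and 82.5 in enriched-PBS, and 84.8, 85.8 and 84.6 in enriched-KA. Hlf, a clock output factor, had 317 ± 21.5 and 258 ± 15.0 after PBS and KA in isolated rats and 281 ± 28.3 and 296 ± 47.3 after PBS and KA in enriched rats (SD, n = 3). Both had an unadjusted p under 0.05 (13.3% of the list, against 2.7% positive over all genes), with interactions of 0.22 (SE 0.10) and 0.34 (SE 0.15). Nr1d1 separated in opposite directions in the 2 housings, by a narrow margin in enriched rats. Glucocorticoid response genes had 9 positive and 6 negative of 15. Hsd11b1, which regenerates corticosterone, was the member with an unadjusted p under 0.05 (6.67% of the list, against 2.7% positive over all genes), at 0.40 (SE 0.16).

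Of 39 cytosolic ribosomal protein genes 30 were negative (76.9%, against 50.3% over all genes). Their median was -0.05, or -0.105 without enriched-KA replicate 3 and -0.02 without enriched-KA replicate 1. An unadjusted p under 0.05 was reached by 1 of them (2.56% of the list, against 2.12% negative over all genes), Rps15, at -0.34 (SE 0.13). Antioxidant and metallothionein genes had 19 negative of 27 (70.4%), and Nfe2l2, the master factor of the antioxidant response, and Sod2, the mitochondrial superoxide dismutase, had -0.34 (SE 0.12) and -0.39 (SE 0.16). Shares nearer to that of all genes were seen in the heat shock, oxidative phosphorylation, cholesterol synthesis and apoptosis lists. Heat shock and chaperone genes had 14 negative of 23 (60.9%), with Hspb1 the member at an unadjusted p under 0.05 (4.35% of the list, against 2.12% negative over all genes). Oxidative phosphorylation genes had 32 negative of 56 (57.1%), with Atp5f1a, a subunit of ATP synthase, at 0.27 (SE 0.11) in the opposite direction. Cholesterol synthesis genes had 12 negative of 20 (60%), with Mvd, a decarboxylase of the mevalonate pathway, at -0.57 (SE 0.21). Apoptosis genes were even, with 7 of each sign and 0 at an unadjusted p under 0.05.

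Markers of other cell types gave the setting for these values. Pyramidal and granule cell genes had 8 positive and 7 negative interactions of 15, interneuron genes 5 and 7 of 12, oligodendrocyte and myelin genes 6 and 8 of 14, neurogenesis genes 9 and 6 of 15, and endothelial and mural genes 2 and 7 of 9, each with 0 members at an unadjusted p under 0.05. Mbp, the main myelin basic protein gene, had 0.14 (SE 0.12) with mean signals of 4973, 4885, 4787 and 5177, and 0.07 on its other probe set. Choroid plexus and meninges genes had 11 positive and 3 negative of 14, with a median of 0.09 that was -0.03 without enriched-PBS replicate 1 and 0.24 without enriched-PBS replicate 3. Ttr had 1.98 (SE 1.31), or 0.64 without isolated-PBS replicate 1. Thalamus and striatum genes had 3 positive and 5 negative of 8. Of 3 blood cell genes 1 was positive, Slc4a1, the anion exchanger of red cells, at 0.87 (SE 0.27). It had an unadjusted p under 0.05 (33.3% of the list, against 2.7% positive over all genes), while Hbb, a beta globin, had -0.02 (SE 0.17). The part of differences in tissue content in the values of other genes was not tested.

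**Figure D4:**
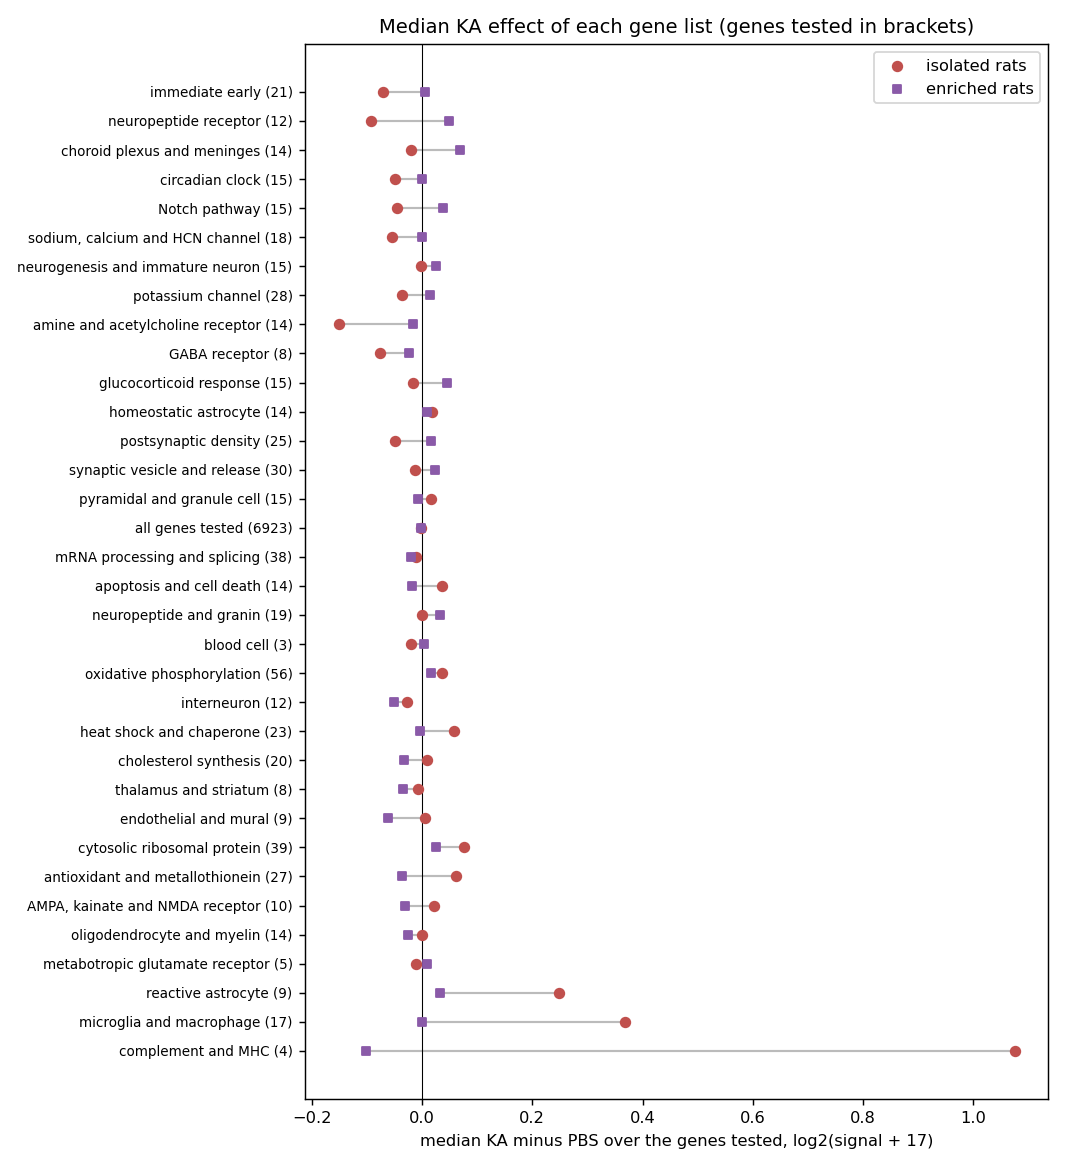
Median KA effect over the tested genes of each of 33 lists and of all 6923 genes, in isolated rats (red circles) and enriched rats (purple squares), as KA minus PBS on the log2(signal + 17) scale, with the number of genes in brackets. The complement and MHC, microglial and reactive astrocyte lists at the bottom lie to the right in isolated rats, at 1.07, 0.37 and 0.25, and at -0.10, -0.0005 and 0.03 in enriched rats, where leaving out 1 pool turned the sign of each. In both housings the other lists lie between -0.15 and 0.08.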

How the data were processed

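Each pooled sample was measured on 1 Affymetrix array, and the authors deposited a linear intensity (signal) for each probe set. No source used here gives their summary method. Each array's mean, leaving out the lowest and highest 2%, was 150.03. Signals ran from 0.0036 to 5591 over 15923 probe sets. Without the 57 controls, the brightest 60% by mean over the 12 samples (9520) were tested as log2(signal + 17). The number of arrays limits the precision. The array annotation gave 12783 of 15866 probe sets a single symbol, 312 several and 2771 none, and 12748 matched a RefSeq gene table by Entrez ID.

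One limma 3.58.1 model (R 4.3.3, lmFit and eBayes, 13.1 degrees of freedom) had a mean per group, with contrasts for KA in each housing and their difference. Two-sided p-values were adjusted over 9520 probe sets (Benjamini-Hochberg, threshold 0.05), and SEs are the model's. The 33 lists used the brightest probe set of each gene and are described by counts and medians. The steps were tested on simulated data.

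Named were the 12 positive and 12 negative genes of smallest interaction p, up to 6 crossing genes per direction, up to 3 members per list, and Anp32a, Gfap, Aif1, Npy, Bdnf, Arc, Egr1, Fos, Ttr, Mbp, C3, Cd74 and Hspb1. Outside this rule, Jag2, Tyrobp, P2ry12, Fcer1g, Lyz2, Notch1, Notch3 and Hes1 were named after their values were seen. Members, lists and rule were chosen with earlier results of these data known. There were 22 alternatives, 12 of which left out 1 sample, and the counts of 3 lists without 2 single samples were added after seeing the data. The main model did not pair samples by replicate number, and the labels do not say whether the numbers mark a pairing. Deviations from group means correlated at -0.0721 to 0.199 between same-numbered samples (median 0.0564), over 0.1 in 2 of 18 pairs. Between samples of other numbers they correlated at -0.142 to 0.101 (median -0.0154), over 0.1 in 1 of 36 pairs. These low values cannot exclude a shared batch.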

Additional observations from a re-analysis of the deposited data

Results flagged for a closer look

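For 12 named genes every KA sample lay on 1 side of every PBS sample in isolated rats and on the opposite side in enriched rats. The interaction itself was tested by limma and did not pass for any of the 12 (adjusted p from 0.758 to 0.91). The log2 interactions were 0.80 for Cpsf4, 0.69 for Nr4a2, 0.57 for Clp1, 0.56 for Sstr4, 0.48 for Lfng and 0.43 for Tpd52l1, all with KA lower in isolated and higher in enriched rats. They were -0.69 for F3, -0.48 for Leprot, -0.43 for Reep6, -0.42 for Ifngr2, -0.42 for Efr3a and -0.37 for Cd24, with the order turned over. These genes were chosen because they cross, so their separation follows from the choice. Among all probe sets tested, 47 were of this kind, 36 (0.378%) in the first order and 11 (0.116%) in the other. KA lay on the same side of PBS without overlap in both housings in 12 (0.126%, above) and 23 (0.242%, below). For Nr4a2, Leprot and Ifngr2 another probe set gave a smaller interaction of the same sign, and for Efr3a one of the opposite sign. None of these other probe sets crossed.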

How the results depend on the processing

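The interaction called 0 probe sets and KA called 1 in isolated and 0 in enriched rats under each of the 22 alternatives. The count of probe sets with an unadjusted interaction p under 0.05, 473 as reported, was 861 with no filter and 317 to 683 under the other settings that kept all samples, and ran from 373 to 718 when 1 sample was left out, with the highest value without enriched-KA replicate 3. With a replicate block it was 527, and 0 were called, but the labels do not say whether the numbers pair the samples. The count of crossing probe sets, 47 as reported, was 78 with no filter and 28 with the brightest 40%, and ran from 63 to 134 when 1 sample was left out, where fewer samples had to separate. Settings that change only the model cannot alter that count. With the brightest 40% the median interaction was -0.52 for microglial genes and -0.30 for complement and MHC genes, where fewer members were tested. The medians of the microglial, complement and MHC, and reactive astrocyte lists were negative in all 22 alternatives, at -0.52 to -0.24, -1.58 to -0.30 and -0.29 to -0.17. Over the same settings the median ran from 0.0007 to 0.05 for homeostatic astrocyte, from 0.0087 to 0.08 for synaptic vesicle, from 0.09 to 0.18 for immediate early and from -0.03 to 0.01 for mRNA processing genes.

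Few pools a group, unstated litters and cages, a summary method that is not given, and dim probe sets near the added constant limit the precision of these values.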

Other observations

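The probe set with the smallest interaction p has no gene name in the annotation used here. Its signals were 149.7, 163 and 151 in isolated-PBS, 123, 96.2 and 108 in isolated-KA, 97.7, 101 and 104 in enriched-PBS, and 156, 123 and 139 in enriched-KA, without overlap within either housing. Its interaction was 0.86 (SE 0.13), with a limma adjusted p of 0.194, which did not pass. Isolated-PBS and enriched-KA were the 2 groups of highest mean, as they were in Cpsf4, Sstr4 and Tpd52l1.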
